A study of Mus musculus with 6 samples.

Results

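The genes described here are 8 genes used to tell arterial from venous endothelium, Gja4, Gja5, Sox7, Sox17, Sox18, Hey1, Bmx and Nr2f2, in whole hearts of mouse embryos at embryonic day 13.5. They are the rows of the count table whose gene symbol equals one of these names, which gave 8 of the 45792 genes counted, with 1 row for each name. Control hearts came from 3 embryos labelled wild-type, and mutant hearts from 3 embryos labelled Tie2Cre INO80 flox/flox, all with the strain label C57BL/6. The study's methods, in contrast, describe mixed backgrounds and count every genotype other than Tie2Cre;Ino80 fl/fl as a control. In the floxed allele, loxP sites flank exon 6 of Ino80, the ATPase of a chromatin remodelling complex. Tie2Cre is driven by the Tek promoter, which is active in endothelial and endocardial cells and also in blood cells, so that Ino80 was meant to be lost from those cells and kept in cardiomyocytes. The sex of the embryos was not determined.

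Endothelial cells take on an arterial or a venous identity early in development. Notch signalling in arterial cells acts through repressors of the Hey family, and the SoxF factors Sox7, Sox17 and Sox18 act with it, whereas the nuclear receptor Nr2f2 (COUP-TFII) restrains Notch signalling in veins. Neither Gja5 nor Nr2f2 belongs to endothelium alone in the heart: Gja5 is also a gene of atrial and trabecular myocytes and of the conduction system, and Nr2f2 is a gene of atrial myocytes. The study also used the Nr2f2 protein to mark pericytes, and no level of Nr2f2 relative to pericyte genes was computed. The hearts were not sorted, so a value below is a sum over all these cells, and fewer cells of a type cannot be told apart from less RNA per cell.

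The 6 libraries held between 28948836 and 89675692 counts, and the most deeply sequenced was mutant replicate 1. Values are counts per M counts (CPM) after TMM scaling, which corrects each library for what its most abundant genes take up. Log2 fold changes are for mutant over control. Ino80 itself was not lower in the mutant hearts (30.2, 31.6 and 32.7 CPM in control and 36.5, 33.7 and 31.8 CPM in mutant replicates 1 to 3), and counts over the whole gene do not show the state of exon 6, so the labels could not be checked in this way. Cardiomyocyte genes were abundant in every heart, with sums over 6 genes of 18137 to 22621 CPM. At an unadjusted p under 0.05, Myh6 (log2 fold change 0.48) was higher and Tnni3 (-0.47) lower. Liver genes summed to at most 1.91 CPM. Erythroid genes differed most among the libraries, with sums of 8806, 17084 and 39224 CPM in the control hearts and 5551, 6267 and 10203 CPM in the mutant hearts, and control replicate 3 stood highest. The 5 of these genes that were lower at an unadjusted p under 0.05 were Alas2 (-1.54) and the globin genes Hba-a1 (-1.27), Hba-a2 (-1.37), Hbb-bs (-1.85) and Hbb-bt (-1.80), whose near-identical copies may share reads.

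Upstream sequence was at hand for Gja4, Gja5, Bmx and Nr2f2 only, and is shown for that reason. These 4 genes are also the members with a positive fold change, which played no part in the choice. Each line gives the 250 bases before the RefSeq start of the gene, 5′ to 3′ on the strand of the gene, on GRCm38.p6; for Gja5 this start lies inside the span annotated by GENCODE. Capitals mark matches, on either strand, to 5 short motifs: ACAAT and ACAAAG, the cores bound by Sox factors; TGGGAA, the core bound by the Notch effector RBPJ; CACGTG, an E-box bound by Hey factors; and AGGTGT, the T-box core.
Gja5, chr3:97032152-97032401, plus strand: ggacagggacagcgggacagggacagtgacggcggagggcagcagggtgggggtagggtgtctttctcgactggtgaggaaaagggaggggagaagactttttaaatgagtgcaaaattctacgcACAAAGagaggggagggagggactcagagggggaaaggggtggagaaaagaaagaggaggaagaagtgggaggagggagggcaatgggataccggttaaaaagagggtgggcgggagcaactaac
Gja4, chr4:127314040-127314289, minus strand: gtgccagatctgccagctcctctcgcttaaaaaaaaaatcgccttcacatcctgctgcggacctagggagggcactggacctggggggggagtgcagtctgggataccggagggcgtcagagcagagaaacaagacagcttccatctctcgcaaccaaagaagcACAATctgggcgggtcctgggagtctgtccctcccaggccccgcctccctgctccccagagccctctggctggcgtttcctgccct
Nr2f2, chr7:70366747-70366996, minus strand: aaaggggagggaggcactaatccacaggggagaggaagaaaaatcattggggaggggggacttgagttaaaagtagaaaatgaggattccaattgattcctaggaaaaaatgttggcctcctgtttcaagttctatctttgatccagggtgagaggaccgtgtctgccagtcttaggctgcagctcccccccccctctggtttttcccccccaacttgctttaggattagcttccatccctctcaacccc
Bmx, chrX:164258194-164258443, minus strand: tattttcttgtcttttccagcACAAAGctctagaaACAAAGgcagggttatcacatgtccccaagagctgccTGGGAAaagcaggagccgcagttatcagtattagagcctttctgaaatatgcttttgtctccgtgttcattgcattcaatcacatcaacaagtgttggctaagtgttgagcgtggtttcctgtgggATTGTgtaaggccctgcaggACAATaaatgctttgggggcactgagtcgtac

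The Bmx window held the most matches. ACAAAG lay 229 to 224 and 215 to 210 bases before its start, TGGGAA lay 178 to 173 bases before it, and ACAAT lay 52 to 48 bases before it (on the opposite strand, printed as ATTGT) and again at 32 to 28. Gja5 had a single ACAAAG 125 to 120 bases before the start, and Gja4 a single ACAAT 86 to 82 bases before it. None of the 5 motifs was found in the Nr2f2 window, which says only that these letters are not there. No match overlapped another. Such short motifs are common: of 32851 windows of the same length, 27.7% held ACAAT, 16.5% ACAAAG, 21.6% TGGGAA, 6.02% CACGTG and 11.8% AGGTGT, so a match describes the sequence and is not a binding site.

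Gja5 was the member with the largest difference between the groups, and every mutant heart lay above every control heart. Nr2f2 and Gja4 were also separated in this direction, and Hey1 was separated in the other, by less than 0.15 on the log2 scale. Of the SoxF factors, Sox18 was lower on average in the mutant hearts, and Sox7 and Sox17 differed by less than their error. The confidence interval of the Sox17 log2 fold change (-0.76 to 0.33) contained the Sox18 value of -0.42. Whether these factors differed from each other was not tested. With edgeR's quasi-likelihood test, none of the 8 members passed an adjusted p of 0.05, and neither did any of the 17125 genes tested (0%). The smallest adjusted p over all genes was 0.0533. At an unadjusted p under 0.05, 2 members were higher in the mutant hearts (Gja5 and Nr2f2) and 1 was lower (Sox18), where 9.48% of all tested genes were higher (1624 genes) and 9.98% lower (1709 genes), 19.5% in all. DESeq2, the tool the study's methods name, called 1 member, Gja5, among 1013 of 16614 genes (6.1%), with 443 genes higher (2.67%) and 570 lower (3.43%).

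All 8 members passed the filter on low counts, and the lowest count of any member in any heart was 202, for Bmx. The 3 mutant hearts lay wholly above the control hearts for 3 members and wholly below for 1, where 14.3% and 12.8% of all tested genes did so, 27.1% in all. The median log2 fold change of the members was 0.11, with 4 positive and 4 negative, and that of all tested genes was -0.0017. The median thus rests between a group of higher and a group of lower members and describes neither.

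**Figure D1:**
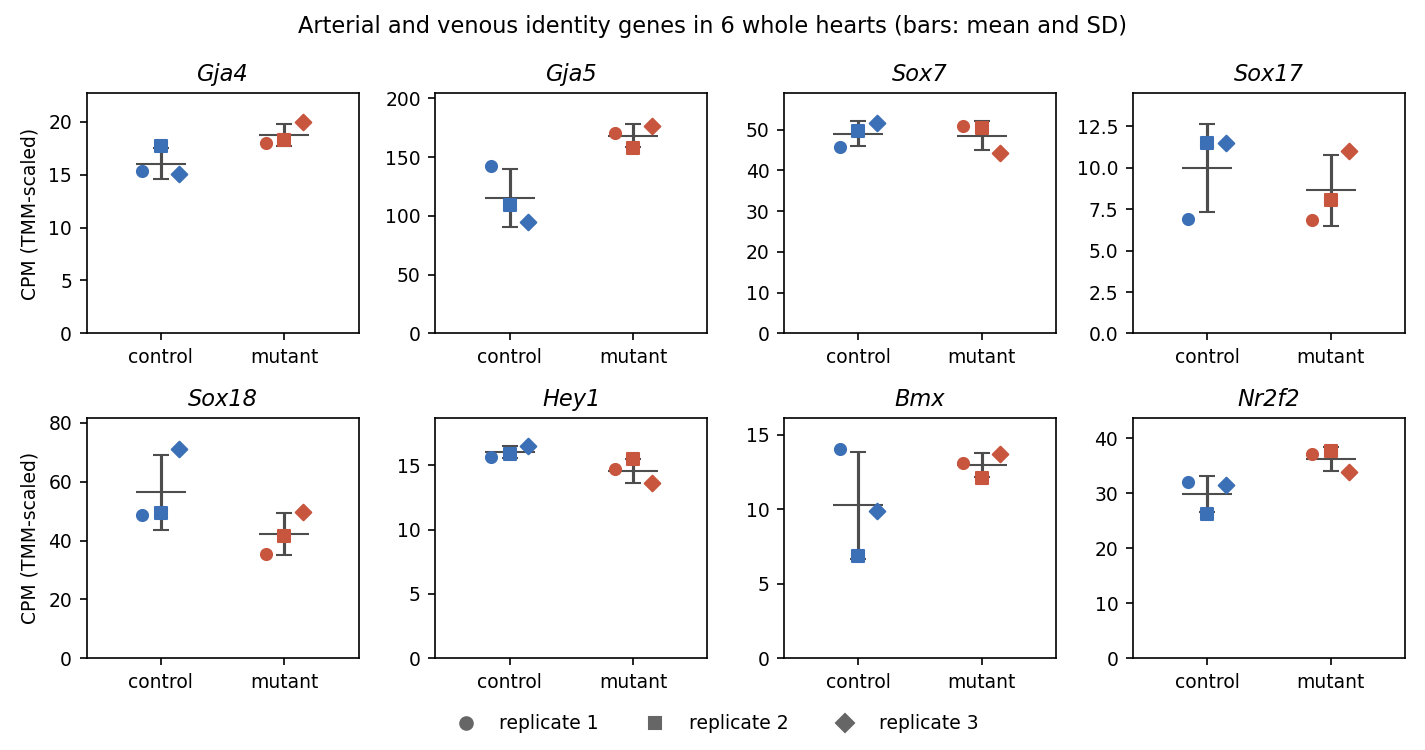
CPM (vertical axis, from 0) of each of the 8 members in the 3 control and 3 mutant hearts, with circles, squares and diamonds for replicates 1, 2 and 3, and bars for the mean and SD. The groups are separated for Gja4, Gja5 and Nr2f2 (mutant hearts above) and for Hey1 (mutant hearts below), and Gja5 shows the widest gap in CPM, from 142 CPM in the highest control heart to 157 CPM in the lowest mutant heart.

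Gja5 (ENSMUSG00000057123.12, chr3:96904693-97077416, plus strand, GRCm38) encodes Cx40, the gap junction connexin of arterial endothelium. It had 142, 109 and 94.5 CPM in control replicates 1 to 3 and 171, 157 and 176 CPM in mutant replicates 1 to 3. Control replicate 1 was nearer to the lowest mutant heart than to either of the other control hearts. Control hearts averaged 115 ± 24.4 CPM (SD, n = 3) and mutant hearts 168 ± 9.73 CPM (SD, n = 3), a 1.46-fold difference (95% interval 1.17 to 1.82). The log2 fold change was 0.54 with a standard error of 0.14 (edgeR unadjusted p = 0.0044, adjusted p = 0.12). The difference passed the adjusted threshold with DESeq2 (adjusted p = 0.0071), with edgeR on all genes with at least 1 count (adjusted p = 0.029), and without control replicate 1 (log2 fold change 0.72, edgeR adjusted p = 0.013). In the other 9 settings tried it had an unadjusted p under 0.05 and an adjusted p over 0.05, and without control replicate 3 the log2 fold change was 0.42. Gpr89, on the opposite strand, shares 165 exon bases with Gja5 (2.87% of its exon length) and had 506 to 1723 counts, against at least 3062 for Gja5, and whether counting used strand is not stated.

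Gja5 was next set against genes of the cells it is known from, each compared within the same heart as log2(CPM + 1) of Gja5 minus the mean of the list. Against 20 pan-endothelial genes, Gja5 stood at 1.27, 0.999 and 0.48 in the control hearts and at 1.53, 1.42 and 1.59 in the mutant hearts. All mutant hearts were higher, by 0.60 on average (exact two-sided permutation p = 0.1, the smallest that 3 against 3 can give). Against 10 trabecular and conduction genes, it stood at 1.45, 1.31 and 0.87 in control and 1.64, 1.47 and 1.63 in mutant hearts, again with no overlap (difference 0.37, exact p = 0.1). Without control replicate 3, the heart with the lowest relative level on all 3 lists, the difference was 0.38 against pan-endothelial genes and 0.20 against trabecular and conduction genes (exact p = 0.1 and 0.2). Against 10 atrial genes the groups overlapped, at 2.20, 1.84 and 1.28 in control and 1.99, 1.68 and 2.14 in mutant hearts, and the difference of 0.16 was within the spread between hearts (exact p = 0.7). Its sign depended on single hearts, with 0.38 without control replicate 1, 0.06 without mutant replicate 3 and -0.08 without control replicate 3. In all, 13 such comparisons of single values per heart were made for the members and their ratios, and no p could fall below 0.1 before adjustment.

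The atrial genes themselves were mostly higher in the mutant hearts. Their sum was 1728, 1622 and 1775 CPM in the control hearts and 2001, 2437 and 2153 CPM in the mutant hearts, without overlap. Myl4 alone made up most of this sum, with 1202 to 1265 CPM in the control hearts and 1372 to 1629 CPM in the mutant hearts. Of the 10 atrial genes, 5 were higher at an unadjusted p under 0.05 and none lower, where 9.48% of all tested genes were higher and 9.98% lower. The higher genes were the atrial myosin light chains Myl7 (log2 fold change 0.69) and Myl4 (0.30), the COUP transcription factor Nr2f1 (0.94), the T-box factor Tbx5 (0.54) and Dkk3 (0.54). Sln (-0.17) and Kcnj5 (-0.16) had negative fold changes, with hearts that overlapped between the groups. DESeq2 called the same 5 genes higher (DESeq2 adjusted p from 7.1e-05 for Tbx5 to 0.029 for Myl4), where 2.67% of all genes were called higher. The list had a median log2 fold change of 0.45. Of the 10 trabecular and conduction genes, Cpne5 (0.70) and Tbx3 (0.45) were higher at the same threshold and Kcne1 (-0.58) was lower, with a median of 0.21. The part of atrial tissue in the Gja5 and Nr2f2 values was not tested.

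**Figure D2:**
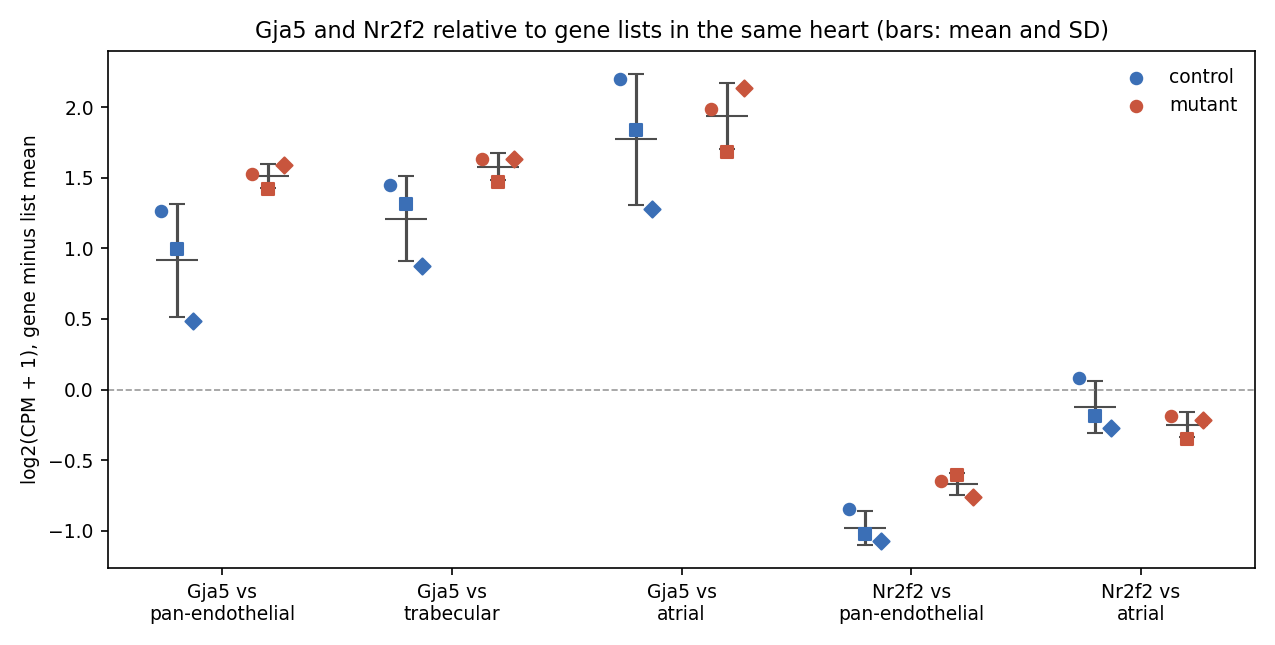
Log2(CPM + 1) of Gja5 and Nr2f2 minus the mean over a gene list in the same heart (vertical axis), with control hearts in blue and mutant hearts in red, circles, squares and diamonds for replicates 1, 2 and 3, and bars for the mean and SD. Both genes are separated between the groups relative to pan-endothelial genes (differences 0.60 and 0.31), and neither is relative to atrial genes (0.16 and -0.12).

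Nr2f2 (ENSMUSG00000030551.11, chr7:70351944-70366735, minus strand) is the venous member. It had 32.1, 26.1 and 31.5 CPM in the control hearts and 37.1, 37.8 and 33.8 CPM in the mutant hearts. The lowest mutant heart exceeded the highest control heart by a small margin. The mean was 29.9 ± 3.29 CPM in control and 36.2 ± 2.14 CPM in mutant hearts (SD, n = 3 each), a 1.21-fold difference with a 95% interval of 1.03 to 1.42 (edgeR unadjusted p = 0.025, adjusted p = 0.20). The unadjusted p was over 0.05 without control replicate 2 (0.068), mutant replicate 1 (0.064) or mutant replicate 2 (0.080). Relative to pan-endothelial genes Nr2f2 was higher in all mutant hearts, at -0.65, -0.61 and -0.76 against -0.85, -1.02 and -1.07 in control hearts (exact p = 0.1). Relative to atrial genes it was not, with a difference of -0.12 (exact p = 0.5). Its relative Nr2f1, an atrial gene in the heart, had 3.42, 4.77 and 5.93 CPM in control and 8.52, 10.9 and 7.69 CPM in mutant hearts, also without overlap, whereas Nr2f6 overlapped (log2 fold change -0.05). A transcript on the opposite strand, B130024G19Rik, shares 643 exon bases with Nr2f2, 7.46% of its exon length. It had between 14 and 106 counts, against at least 768 for Nr2f2.

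Gja4 (ENSMUSG00000050234.7, chr4:127311421-127314039, minus strand) encodes Cx37, the other connexin of arterial endothelium. It had 15.3, 17.7 and 15.0 CPM in the control hearts and 18.0, 18.3 and 20.0 CPM in the mutant hearts. The groups were separated, though control replicate 2 and mutant replicate 1 nearly met. The means of 16.0 ± 1.49 and 18.8 ± 1.06 CPM (SD, n = 3 each) gave a 1.17-fold difference whose 95% interval, 0.998 to 1.37, just reached 1 (edgeR unadjusted p = 0.052, adjusted p = 0.26). The unadjusted p was under 0.05 without control replicate 2 (0.014) and with a filter of at least 1 CPM in 3 hearts (0.048). Relative to pan-endothelial genes the groups overlapped, with a difference of 0.26 (exact p = 0.3).

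The other connexins did not follow Gja4 and Gja5. Of 20 connexin genes, 7 passed the filter on low counts. Gja1, the main connexin of working ventricular myocytes, had 660, 722 and 724 CPM in the control hearts and 618, 587 and 529 CPM in the mutant hearts, without overlap and in the opposite direction to Gja5 (log2 fold change -0.28 ± 0.09 SE, edgeR adjusted p = 0.17). Gja3 was lower in every mutant heart as well (log2 fold change -0.78, edgeR adjusted p = 0.12, DESeq2 adjusted p = 0.0055). Gjc1, a connexin of the early myocardium and conduction tissue, was at -0.04.

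Bmx (ENSMUSG00000031377.9, chrX:164192842-164258193, minus strand), a Tec family kinase of arterial endothelium and endocardium, had the widest relative spread among control hearts. It had 14.0, 6.88 and 9.88 CPM in the control hearts and 13.1, 12.1 and 13.7 CPM in the mutant hearts. The mutant hearts lay close together, and the control hearts lay on both sides of them. The means of 10.3 ± 3.58 and 12.9 ± 0.820 CPM (SD, n = 3 each) gave a log2 fold change of 0.33 with an interval of -0.19 to 0.85 (edgeR adjusted p = 0.43). A single control heart moved this value more than in any other positive member: it was 0.63 without control replicate 1 (unadjusted p = 0.0072, adjusted p = 0.086) and 0.12 without control replicate 2. Of the other Tec kinases, Tec was lower in every mutant heart (16.5 to 20.5 CPM against 20.6 to 22.0 CPM, log2 fold change -0.18, edgeR adjusted p = 0.35), Btk was near 1 CPM in both groups, and the remaining 2 listed kinases did not pass the filter.

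Sox18 (ENSMUSG00000046470.5, chr2:181669836-181671640, minus strand), a SoxF factor of arterial, venous and lymphatic development, was the member with the largest negative value. It had 48.6, 49.4 and 71.0 CPM in the control hearts and 35.2, 41.7 and 49.6 CPM in the mutant hearts. The groups overlapped, since mutant replicate 3 matched the lower control hearts, and control replicate 3 stood well above the rest. On average, control hearts had 56.3 ± 12.7 and mutant hearts 42.2 ± 7.17 CPM (SD, n = 3 each), and the log2 fold change was -0.42 with an interval of -0.82 to -0.02 (edgeR unadjusted p = 0.042, adjusted p = 0.24). Without control replicate 3 it was -0.22 (unadjusted p = 0.15), and without mutant replicate 1 it was -0.30 (unadjusted p = 0.14). Relative to pan-endothelial genes it differed by -0.36 (exact p = 0.2). The sum over the 8 erythroid genes was highest in the heart where Sox18 was highest and lowest in the hearts where it was lowest. Single genes did not all follow this order, since Slc4a1 and Epb42 were lowest in control replicate 1. The part of the erythroid genes in the Sox18 difference was not tested.

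Sox7 (ENSMUSG00000063060.5, chr14:63943673-63950732, plus strand), also a SoxF factor, was nearly level across the 6 hearts. It had 45.7, 49.6 and 51.6 CPM in the control hearts and 50.8, 50.4 and 44.3 CPM in the mutant hearts. Its log2 fold change of -0.01 had an interval of -0.21 to 0.18, which spans levels of 0.865-fold to 1.14-fold. The sign changed when control replicate 3 (0.03) or mutant replicate 3 (0.05) was left out.

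Sox17 (ENSMUSG00000025902.11, chr1:4490931-4497354, minus strand), the SoxF factor most restricted to arteries, had the lowest level per exon length among the members. It had 6.94, 11.5 and 11.5 CPM in the control hearts and 6.87, 8.04 and 11.0 CPM in the mutant hearts. The lowest heart of each group held nearly the same value. Its log2 fold change was -0.21 with a standard error of 0.24 (interval -0.76 to 0.33), which spans levels of 0.589-fold to 1.26-fold, so that a difference of this size was not detectable at this spread. Gm37587, on the opposite strand, covers 804 of its exon bases (16.8%) and had 0 or 1 counts in each heart. The log2 fold change of Sox17 was -0.42 without control replicate 1 and -0.07 without mutant replicate 1. Of the other Sox genes that passed the filter, Sox3 (log2 fold change 1.19), Sox5 (0.66), Sox9 (0.37) and Sox12 (0.29) were higher at an unadjusted p under 0.05, and all 4 were without overlap. Sox18 was the 1 Sox gene of 14 that was lower at this threshold.

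Hey1 (ENSMUSG00000040289.6, chr3:8663359-8667256, minus strand), the Notch-induced repressor among the members, was slightly lower in every mutant heart. It had 15.6, 15.9 and 16.5 CPM in the control hearts and 14.7, 15.5 and 13.6 CPM in the mutant hearts. Mutant replicate 2 lay just under the lowest control heart. The means of 16.0 ± 0.452 and 14.6 ± 0.935 CPM (SD, n = 3 each) gave a 0.912-fold level with an interval of 0.789 to 1.05 (edgeR unadjusted p = 0.18, adjusted p = 0.44). Its relatives were separated in the same direction by more. Hey2, a gene of arterial endothelium and of compact myocardium, had 188, 210 and 165 CPM in control and 159, 151 and 151 CPM in mutant hearts (log2 fold change -0.29, edgeR adjusted p = 0.17). Heyl, found in smooth muscle and pericytes as well, had 20.1, 26.4 and 30.4 CPM in control and 17.2, 18.3 and 18.0 CPM in mutant hearts (-0.52, edgeR adjusted p = 0.13, DESeq2 adjusted p = 0.022). In the same comparison, 10 of 12 pericyte and smooth muscle genes also had a negative fold change, and their median was -0.26, or -0.10 without control replicate 3 and -0.42 without control replicate 1. At an unadjusted p under 0.05, the pericyte genes Rgs5 (log2 fold change -2.62) and Kcnj8 (-0.74) and the smooth muscle genes Myh11 (-2.40), Actg2 (-1.93) and Lmod1 (-1.47) were lower. Rgs5 and Kcnj8 were lower in every mutant heart. The hearts overlapped for Myh11, Actg2 and Lmod1, which had low counts. Myh11 had 0.60, 2.96 and 4.75 CPM in the control hearts and 0.50, 0.71 and 0.34 CPM in the mutant hearts. DESeq2 called 4 genes of this list lower and 1 higher, where 3.43% of all genes were called lower and 2.67% higher. The lower genes were Rgs5 (DESeq2 adjusted p = 3.2e-08), Myh11 (0.0020), Kcnj8 (0.0074) and Actg2 (0.0085). The higher gene was Cnn1, also a smooth muscle gene, which was higher in every mutant heart (0.48, DESeq2 adjusted p = 0.014). Tagln was at 0.62 with overlapping hearts. The part of those cells in the Hey values was not tested.

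**Figure D3:**
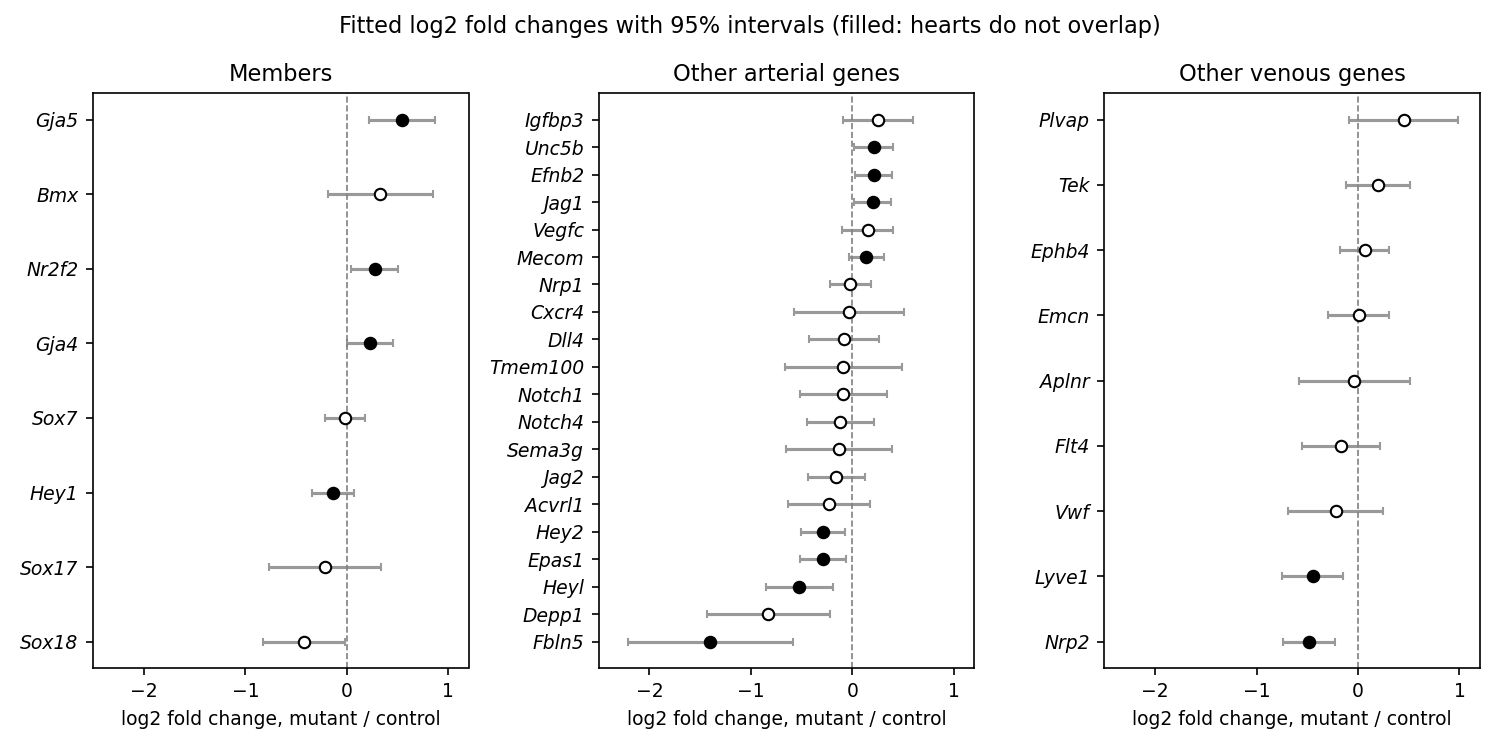
Fitted log2 fold changes, mutant over control (horizontal axis), with 95% intervals for the 8 members, 20 other arterial genes and 9 other venous genes, where filled points are genes whose control and mutant hearts do not overlap. Members run from -0.42 (Sox18) to 0.54 (Gja5), and the other arterial genes spread on both sides of 0 from -1.40 (Fbln5) to 0.25 (Igfbp3).

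The other arterial genes did not share the direction of the arterial connexins. Of 20 genes, 3 were higher at an unadjusted p under 0.05, 5 were lower, none passed the adjusted threshold in edgeR, and DESeq2 called 3, all lower. The higher genes were the ephrin ligand Efnb2 (log2 fold change 0.21), the Notch ligand Jag1 (0.20) and the netrin receptor Unc5b (0.21). The lower genes were Hey2 and Heyl, given above, with Epas1 (-0.29), Depp1 (-0.83) and the elastic fibre protein Fbln5 (-1.40). Efnb2, the classical arterial marker, had 62.5, 62.6 and 71.3 CPM in control and 80.5, 73.5 and 72.8 CPM in mutant hearts, without overlap. Dll4, the arterial Notch ligand, overlapped, with 19.7, 18.9 and 27.6 CPM in control and 22.2, 19.0 and 21.2 CPM in mutant hearts. The list median was -0.09, and it lay between -0.19 (without control replicate 1) and 0.05 (without control replicate 3) when single hearts were left out.

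Among the other venous genes, 9 of 10 passed the filter, none was higher and 2 were lower at an unadjusted p under 0.05: Nrp2 (log2 fold change -0.48, DESeq2 adjusted p = 0.0071) and Lyve1 (-0.45), both also genes of lymphatic endothelium. Ephb4, the venous receptor of Efnb2, had 147, 119 and 155 CPM in control and 140, 145 and 155 CPM in mutant hearts, and Aplnr, a receptor of venous and sinus venosus endothelium, had 27.0, 57.1 and 37.9 CPM in control and 35.1, 44.3 and 39.4 CPM in mutant hearts. Both overlapped between the groups. Plvap, with 109, 49.4 and 83.0 CPM in control and 106, 110 and 114 CPM in mutant hearts, had the highest fold change of the list (log2 fold change 0.45, unadjusted p = 0.092 with edgeR and 0.035 with DESeq2), and Tek was at 0.20. In all, 4 of the 9 genes had a positive fold change, and the median was -0.04.

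A ratio of an arterial to a venous gene in the same heart gave no separation. The log2 ratio of Efnb2 to Ephb4 was -1.22, -0.92 and -1.11 in the control hearts and -0.79, -0.97 and -1.08 in the mutant hearts (difference 0.13, exact p = 0.4). The log2 ratio of Gja4 to Nr2f2 was -1.02, -0.53 and -1.02 in control and -1.004, -1.006 and -0.73 in mutant hearts (difference -0.05, exact p = 1). Gja4 and Nr2f2 were higher in the mutant hearts, and their ratio differed by less than the spread between hearts.

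Pan-endothelial genes, the measure of endothelial RNA in the sample, summed to 1639, 1477 and 1881 CPM in the control hearts and to 1650, 1610 and 1596 CPM in the mutant hearts. The groups overlapped, and the median log2 fold change of the 20 genes was -0.04, with -0.13 without control replicate 2 and 0.06 without control replicate 3. Of these, Fli1, Esam, Icam2 and Cd34 were lower at an unadjusted p under 0.05 and Tal1, a factor of endocardium and blood, was higher. The relative levels of the remaining members against this list were within the spread between hearts: -0.09 for Hey1 (exact p = 0.4), 0.02 for Sox7 (exact p = 0.9), -0.14 for Sox17 (exact p = 0.7) and 0.40 for Bmx (exact p = 0.4).

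Levels were compared between members as CPM per kilobase of exon. In control hearts the order was Sox18 (34.8), Gja5 (20.1), Sox7 (14.9), Gja4 (9.51), Hey1 (4.90), Nr2f2 (3.47), Bmx (3.32) and Sox17 (2.09). The hearts of neighbours did not overlap, except for Nr2f2 with Bmx and Bmx with Sox17. In mutant hearts Gja5 came first at 29.3 and Sox18 followed at 26.0, though these overlapped, and the order of the others was the same, with Sox7 at 14.7, Gja4 at 11.1, Hey1 at 4.47, Nr2f2 at 4.20, Bmx at 4.19 and Sox17 at 1.81. Hey1 with Nr2f2 and Nr2f2 with Bmx also overlapped there. Per length, the arterial connexin Gja5 and the SoxF factor Sox18 thus exchanged the first place between the groups, and the exchange was not tested.

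The genes whose levels ran closest to each member over the 6 hearts were looked for among 116 genes of the other lists, by Pearson's r of log2(CPM + 1). These are descriptions over 6 hearts that share the group difference and the library scaling. Gja5 ran closest to Sox9 (r = 0.974) and Sox3 (0.935), and Gja4 to Cpne5 (0.963) and Sox12 (0.891). Nr2f2 ran closest to the atrial-enriched myosin gene Myh6 (0.959) and to the atrial gene Dkk3 (0.954), and Hey1 to Nrp2 (0.969) and Fli1 (0.936). Sox7 ran closest to Nrp1 (0.92) and Ets1 (0.809), both endothelial genes, and Sox17 to the endothelial gene Robo4 (0.884).

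In the remaining members, Sox18 and Bmx, the gene ranked first was a gene of blood cells. Sox18 ran with the alpha globin genes Hba-a2 (0.959) and Hba-a1 (0.94). Bmx ran with Csf1r (0.993), the receptor that marks macrophages, and Plvap (0.975), an endothelial and endocardial gene. The 6 macrophage genes summed to 67.8, 46.8 and 57.2 CPM in the control hearts and to 69.5, 66.5 and 63.2 CPM in the mutant hearts, and the control hearts lowest in Bmx, replicates 2 and 3, were the lowest in this sum. Of the 6, Cx3cr1 (log2 fold change 0.35) was higher at an unadjusted p under 0.05. The defining macrophage genes were thus present in all hearts, and their part in the Bmx values was not tested.

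**Figure D4:**
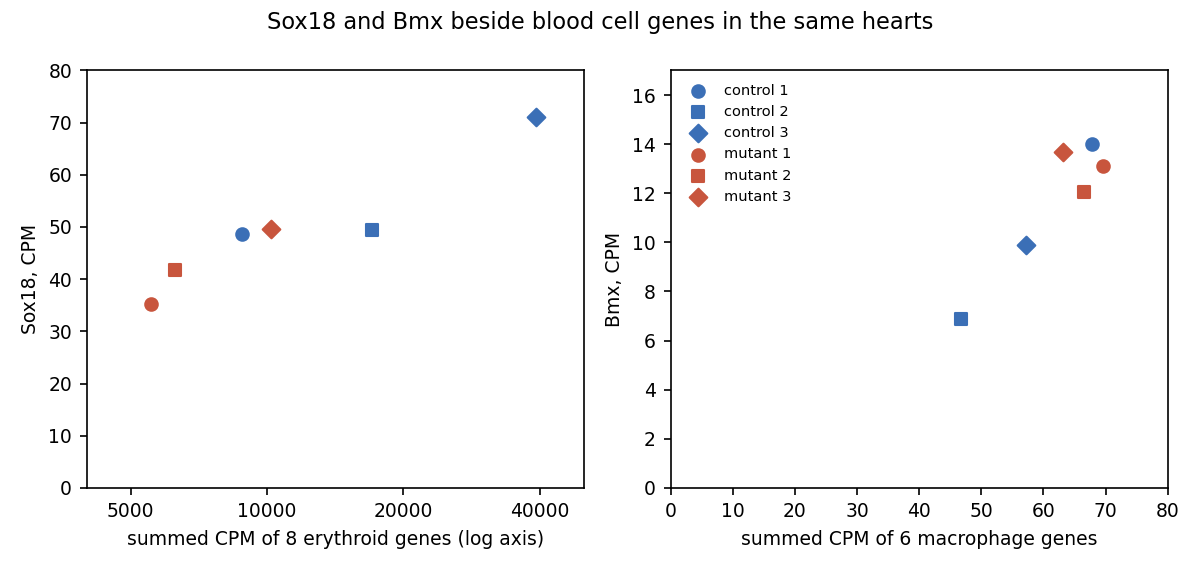
Left, Sox18 in CPM (vertical axis) against the summed CPM of 8 erythroid genes (horizontal log axis), and right, Bmx in CPM against the summed CPM of 6 macrophage genes, with 1 point per heart. Sox18 and the erythroid sum are both highest in control replicate 3 (71.0 and 39224 CPM), and Bmx and the macrophage sum are both lowest in control replicate 2 (6.88 and 46.8 CPM).

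Single hearts set several of these values, as the refits without each heart show. Leaving out control replicate 1 gave the highest value of Gja5 (0.72), Bmx (0.63) and Nr2f2 (0.33) and the lowest of Sox17 (-0.42). Then 4 members had an unadjusted p under 0.05 (Gja5, Bmx, Nr2f2 and Sox18), against 1, Gja5, without mutant replicate 1 or without mutant replicate 2. The share of all tested genes past this threshold moved in the same direction. It was 22.8% without control replicate 1, 13.7% without mutant replicate 1 and 14% without mutant replicate 2. The sign of every member other than Sox7 was kept in all 6 refits, and Gja5 was the member that had an unadjusted p under 0.05 in each.

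**Figure D5:**
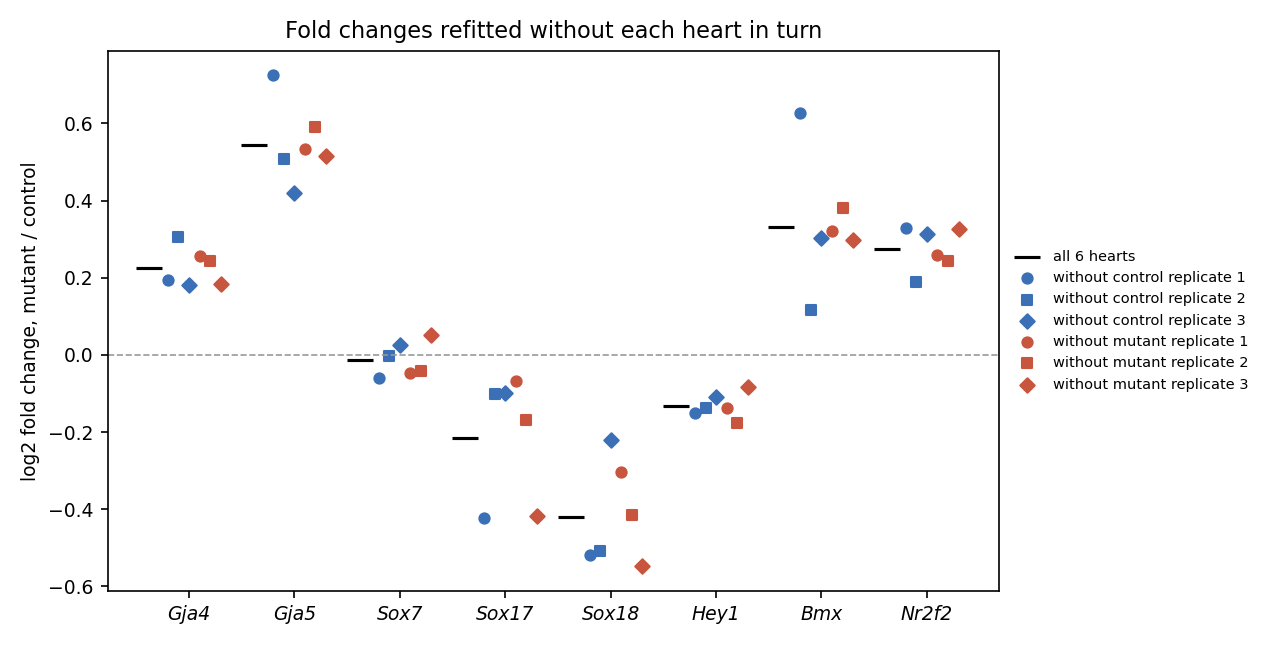
Log2 fold change, mutant over control (vertical axis), of each member with all 6 hearts (black bar) and without each heart in turn (blue, a control heart left out; red, a mutant heart left out; circle, square and diamond, replicates 1, 2 and 3). Gja5 stays between 0.42 and 0.72, Bmx ranges from 0.12 to 0.63, and Sox7 lies on both sides of 0.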

How the data were processed

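Hearts of 3 control and 3 mutant embryos were compared. For the deposited counts, the authors aligned paired-end reads with STAR 2.4.2a to GRCm38 using GENCODE vM6, and summarizeOverlaps then assigned them to transcripts, with no normalization. The overlap mode and any use of strand are not stated. A further table deposited by the authors holds their DESeq2 comparison, of which only the symbols were used and the 6 columns of values were not. Low counts were removed by filterByExpr (at least 10 counts, at least 15 in total), and genes were scaled by TMM and tested in R 4.3.3 with edgeR 4.0.16 (quasi-likelihood, condition as the only term, Benjamini-Hochberg over 17125 genes, threshold 0.05). DESeq2 1.42.0, RLE and upper quartile scaling, 2 other filters, a pseudocount of 0.1 in place of 1, the replicate number as a block and leaving out each heart were alternatives. Intervals are 95%. The submitters call the hearts biological replicates, and no pair of libraries agreed within sampling noise. At these depths the spread between hearts, with a common biological coefficient of variation of 0.153, limited precision more than counting error.

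Exact permutation tests, two-sided, compared single values per heart. Exon lengths and coordinates came from GENCODE vM21, which matched 45229 of 45792 genes, and upstream sequences from RefSeq, which matched 4 of 8 members. Sequences of Sox7, Sox17, Sox18 and Hey1 were not analysed here. Named were the 8 members, Ino80, genes of the lists with an unadjusted p under 0.05 (otherwise the 2 largest changes above 1 CPM), Efnb2, Dll4, Hey2, Ephb4, Aplnr and Nr2f1, and the 2 genes most correlated with each member. Of these correlations, 1 is not reported here. Igfbp3, Tek, Tagln, Gjc1, Nr2f6, Tec and Btk were named after their values were seen. The members and lists were chosen with earlier results of these data known.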

Additional observations from a re-analysis of the deposited data

How the results depend on the processing

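In place of 0 genes, DESeq2 called 1013, edgeR on all genes with at least 1 count called 603, and the refits without single hearts called 0 to 751 (751 without control replicate 1 and 3 without control replicate 2). Of the members, 1 (Gja5) was called with DESeq2 and with all genes of at least 1 count, and 0 to 1 when single hearts were left out. Members with an unadjusted p under 0.05 numbered 1 to 4 in those refits, where 13.7% to 22.8% of all tested genes passed. Members without overlap numbered 4 to 6. Groups separate more easily with a heart left out, and the share of all genes without overlap was not computed for the refits. Sox7 ranged from -0.060 without control replicate 1 and changed sign without control replicate 3 (0.027) and without mutant replicate 3 (0.052). The median log2 fold change of the other venous list ran from -0.19 to -0.013 and that of the trabecular and conduction list from 0.051 to 0.27 when single hearts were left out, with -0.19 without control replicate 1 and 0.051 without control replicate 2. Over the same refits the medians ran from -0.135 to 0.056 for pan-endothelial genes, from -0.42 to -0.10 for pericyte and smooth muscle genes and from 0.33 to 0.56 for atrial genes. The differences relative to pan-endothelial genes turned sign for Sox7 (-0.024 to 0.103) and Sox17 (-0.34 to 0.039) and did not for the other members, as for Gja5 (0.38 to 0.77) and Bmx (0.23 to 0.64). The log2 ratio of Gja4 to Nr2f2 also turned sign (-0.15 to 0.11). The study's methods give littermates as controls and do not say which hearts shared a litter. Deviations from the group means correlated at 0.0245, -0.0836 and -0.073 for hearts of the same replicate number. For hearts of different numbers the correlations ran from -0.0759 to 0.136. At 3 hearts a group, these values could not decide whether the numbers pair the samples. With the number as a block, 14 genes were called (1 higher and 13 lower), none of them a member, and Gja5 had an adjusted p of 0.128. Scaling by RLE or upper quartile and the filter of 1 CPM in 3 hearts changed no call of a member. The cause of these differences was not tested. With 3 hearts a group, the exact tests could not fall below 0.1.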
